A study of Mus musculus with 6 samples.

Results

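Semaphorins, plexins, neuropilins, Eph receptors and ephrins were examined in muscle stem cells (MuSCs) from injured muscle of mice treated with resolvin D1 (RvD1) or vehicle. Members were all genes whose symbol begins with Sema3 to Sema7 or Plxna to Plxnd, or is that of a neuropilin, an Eph receptor or an ephrin. This gave 56 of the 49671 genes listed, of which 53 are protein coding and 3 are antisense RNAs of the Plxna4 locus (Plxna4os1, Plxna4os2 and Plxna4os3). The rule uses symbols and no measured value, although the families were picked with earlier results of these data known.

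These families carry short-range signals that steer growing axons, vessels and migrating cells. Semaphorins are secreted (class 3), membrane-spanning (classes 4 to 6) or anchored to the membrane by a lipid (class 7), and they act through plexins, which switch off small GTPases inside the receiving cell. Class 3 semaphorins mostly need a neuropilin as coreceptor. Ephrins are held on the cell surface, by a lipid in the A class and by a membrane span in the B class, and signal to Eph receptor tyrosine kinases on the neighboring cell. In muscle, MuSC-derived Sema3a is known as a cue for motor axons during repair, and ephrins are known to repel migrating MuSCs.

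RNA-Seq libraries came from 6 female C57BL/6 mice, 4 to 6 months old, of which 3 received RvD1 and 3 vehicle. Each library is 1 mouse, with MuSCs of both tibialis anterior (TA) muscles pooled. All mice had been injured by intramuscular BaCl2, a salt that destroys myofibers, and MuSCs were collected on day 3. RvD1, a lipid mediator that promotes the resolution of inflammation, was injected intraperitoneally at 100 ng per day, and vehicle was 0.1% ethanol. The first dose was given shortly before the injury. Cells were sorted for β1-integrin and CXCR-4 and against Sca-1, CD11b, Ter119 and CD45 (the sample labels add CD31), so nonmuscle cells that pass this gate can contribute RNA, and no uninjured or untreated MuSCs are compared here.

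Total expected counts per library were between 16148026 and 28149176, so that 3 counts correspond to 0.107 to 0.186 CPM (counts scaled to library size). This floor is given for scale and was not applied as a filter. It covers counting error only. All 10 muscle stem cell and myoblast markers were above 1 TPM (a level corrected for transcript length and depth). Their summed levels were 3630 to 4440 TPM with RvD1 and 3390 to 3750 TPM with vehicle. For the other cell types examined, 6 to 10 of 10 markers each also had a mean of at least 1 TPM. Myog, which encodes the differentiation factor myogenin, was at 977 TPM on average and the stem cell factor Pax7 at 5.41 TPM.

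Injured MuSCs contained RNA of most of these families. A mean of at least 1 TPM over the 6 libraries was found for 41 of the 56 members, and 15 of these were at 10 TPM or more. Plxnb2 led the list at 101 TPM and held 50.5% of all plexin RNA. Epha6 and Plxna4os2 had 0 counts in every library. In a bulk library, fewer cells of a type and less RNA per cell cannot be told apart.

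**Figure D1:**
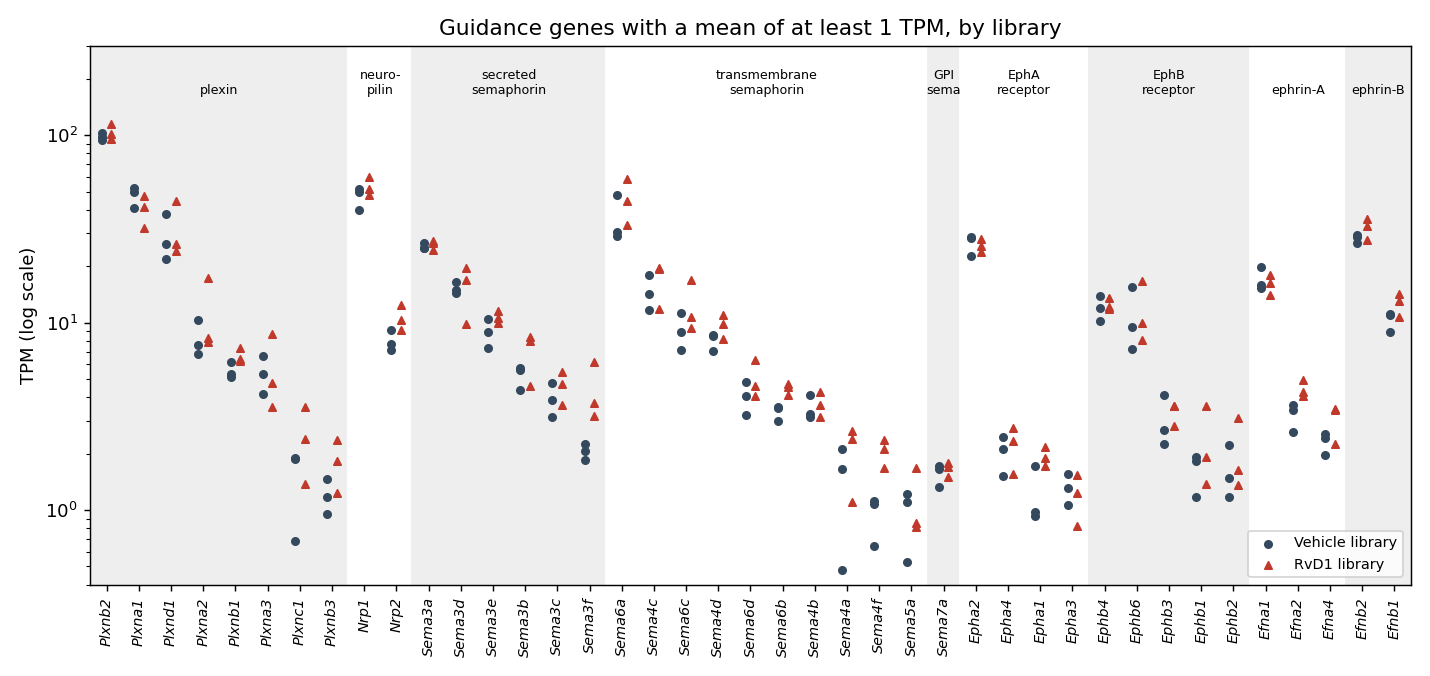
Level of each member with a mean of at least 1 TPM, on a log axis, grouped by family. Each circle is a vehicle library and each triangle an RvD1 library. Plxnb2 stands above the other 40 genes in every library, and circles and triangles are intermixed for most genes.

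Neighbors in the order of level mostly could not be separated. Of the 40 pairs of adjacent members above 1 TPM, 38 had overlapping ranges over the 6 libraries. The exceptions were the step from Plxnb2 to Nrp1 and the step from Sema3a to Efna1. Members farther apart in the order could still separate, as Nrp1 (40.15 to 59.8 TPM) did from Sema3a (24.4 to 27.4 TPM).

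Plexins were the most abundant receptors. Plxnb2 (ENSMUSG00000036606, chromosome 15, 89155549 to 89180788, positions on GRCm38/mm10) encodes a receptor for class 4 semaphorins, and its level was 102, 95.3 and 116 TPM in RvD1 replicates 1 to 3 and 97.9, 103 and 93.9 TPM in vehicle replicates 1 to 3. Plxna1 (ENSMUSG00000030084, chromosome 6, 89316314 to 89362620), a signaling partner of neuropilins, was at 32.1, 41.2 and 47.6 TPM with RvD1 and 49.6, 40.8 and 52.2 TPM with vehicle. Plxnd1 (ENSMUSG00000030123, chromosome 6, 115954811 to 115995005), the receptor for Sema3e that is best known from vessels, was at 44.5, 24.1 and 26.3 TPM with RvD1 and 37.9, 26.4 and 21.97 TPM with vehicle. For all 3 plexins the TPM ranges of the groups overlapped, and for Plxnd1 replicate 1 was the highest library of each group. Plxna4 was at 0.203 TPM on average, and reads from it and from its antisense genes cannot be told apart where the counting does not use strand.

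Neuropilins were both present. Nrp1 (ENSMUSG00000025810, chromosome 8, 128358604 to 128503363), which also binds vascular endothelial growth factor, was at 59.8, 51.6 and 47.8 TPM with RvD1 and 51.5, 49.9 and 40.2 TPM with vehicle. Nrp2, the usual coreceptor for Sema3f, averaged 10.6 ± 1.65 TPM in the RvD1 group and 7.99 ± 1.06 TPM in the vehicle group (SD, n = 3 each). Groups overlapped for both genes.

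Among the secreted semaphorins, Sema3a (ENSMUSG00000028883, chromosome 5, 13125414 to 13602565) had the steadiest level of the abundant members, 26.6, 27.4 and 24.4 TPM with RvD1 and 25.0, 26.6 and 25.1 TPM with vehicle. Its highest library exceeded its lowest by a factor of 1.12. Sema3d (ENSMUSG00000040254, chromosome 5, 12383385 to 12588948) was at 9.88, 19.6 and 16.9 TPM with RvD1 and 14.4, 14.9 and 16.5 TPM with vehicle, and its low library was RvD1 replicate 1. Sema3a lies 536 kb from Sema3d and 423 kb from Sema3e. Sema3e was at 9.80 TPM on average. Sema3g, known from arterial endothelium, was at 0.163 TPM, with a mean of 8.83 counts.

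Of the 12 membrane-spanning semaphorins, 10 were above 1 TPM. Sema6a (ENSMUSG00000019647, chromosome 18, 47235598 to 47368870), a ligand of class A plexins, was at 58.3, 44.5 and 33.2 TPM with RvD1 and 48.1, 29.0 and 30.6 TPM with vehicle. Sema4c (ENSMUSG00000026121, chromosome 1, 36548639 to 36558349), a ligand of Plxnb2 that has been linked to myoblast differentiation, was at 11.8, 19.5 and 19.4 TPM with RvD1 and 18.1, 11.7 and 14.3 TPM with vehicle. Groups overlapped for both. Sema7a, the lipid-anchored member, was at 1.61 TPM on average.

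Ephrin and Eph RNA was carried by a few genes each. Efnb2 (ENSMUSG00000001300, chromosome 8, 8617434 to 8661242), the ligand that marks arteries, was at 32.7, 35.8 and 27.7 TPM with RvD1 and 29.5, 26.8 and 28.8 TPM with vehicle. Efnb1 (ENSMUSG00000031217, chromosome X, 99136130 to 99148991) was at 10.8, 14.1 and 13.1 TPM with RvD1 and 10.9, 11.2 and 8.97 TPM with vehicle. Efna1 (ENSMUSG00000027954, chromosome 3, 89271733 to 89281142), the main ligand of Epha2, was at 16.2, 17.9 and 14.1 TPM with RvD1 and 15.4, 19.9 and 15.8 TPM with vehicle. None of these 3 ephrins separated the groups. Efna3 and Efna4 follow Efna1 within 32.8 and 10.4 kb of the next gene on chromosome 3 and were at 0.510 and 2.68 TPM.

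Epha2 (ENSMUSG00000006445, chromosome 4, 141301240 to 141329384) held 81.4% of EphA RNA, at 23.7, 27.96 and 25.8 TPM with RvD1 and 28.4, 28.7 and 22.7 TPM with vehicle. Ephb4 (ENSMUSG00000029710, chromosome 5, 137350109 to 137378669), the receptor for Efnb2 in veins, was at 11.8, 12.1 and 13.6 TPM with RvD1 and 13.9, 10.2 and 11.9 TPM with vehicle. Ephb6 (ENSMUSG00000029869, chromosome 6, 41605482 to 41620509), which lacks kinase activity, was at 16.7, 8.07 and 9.94 TPM with RvD1 and 15.4, 9.52 and 7.23 TPM with vehicle. Groups overlapped for these receptors too, and replicate 1 was again the highest library of each group for Ephb6. The EphA receptors Epha5, Epha6, Epha8 and Epha10 had mean levels between 0 and 0.052 TPM.

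A known ligand and its receptor were often found in the same libraries. Of 16 ligand and receptor pairs listed from textbook knowledge, both partners were at 1 TPM or more in 12. Of all 56 members, 41 reached that level. The pairs that fell short all held Efna5 (0.955 TPM) or Plxna4. Plxnb2 exceeded its ligand Sema4c by a factor of 6.41 and Plxna1 exceeded Sema6d by 9.72, whereas Efnb2 RNA exceeded that of Ephb4, with a receptor to ligand ratio of 0.405. Plxna4, at 0.203 TPM, was far below its ligand Sema6a, at 40.6 TPM. RNA levels do not show which of these proteins meet at the cell surface.

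**Figure D2:**
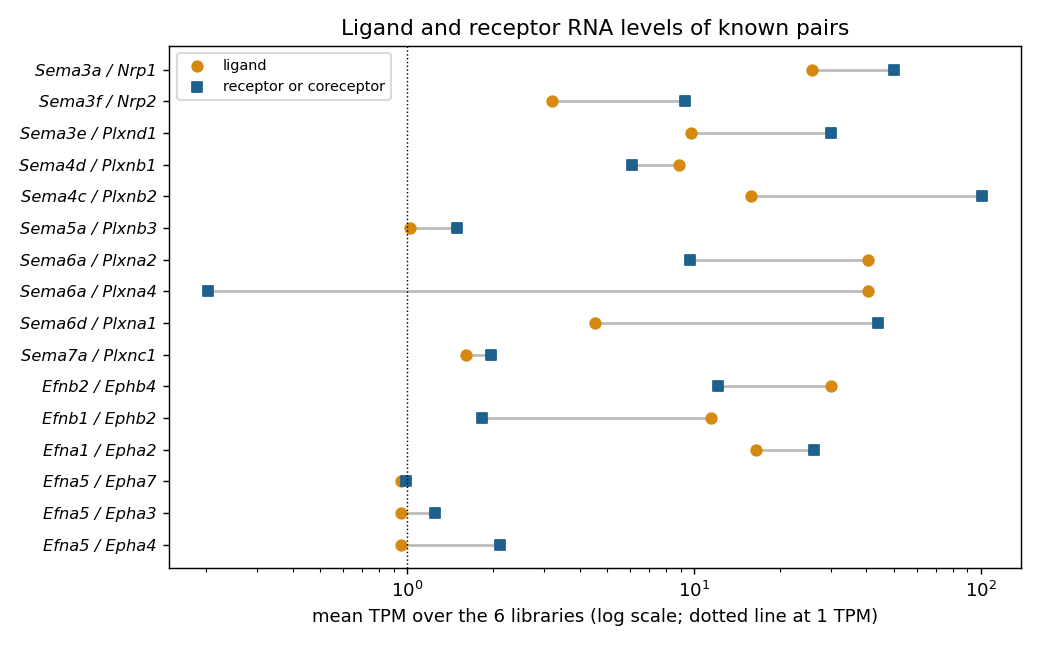
Mean TPM over the 6 libraries, on a log axis, of the ligand (circle) and the receptor or coreceptor (square) of each of 16 pairs, with a dotted line at 1 TPM. Both symbols lie at or right of the line for 12 pairs. Plxna4 at 0.203 TPM is farthest to the left.

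Promoter sequences were examined for features that the choice of members did not use. RefSeq start sites on GRCm38.p6 were on hand for 47 members, with 61 promoters, and the 250 bases before each start were read. The letters GGGCGG on either strand, the GC box bound by Sp1-type factors, were present in 75.4% of these promoters, in 57.0% of promoters of all genes tested here, and in 32.7% of all promoters. The median GC content was 64.4%, 60.0% and 52.4% in the same order. The E-box CAGGTG on either strand, a sequence that myogenic factors such as Myod1 can bind, was present in 13.1%, 15.3% and 17.2%. A match is a run of letters and no measure of binding.

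The most abundant member and the member with the largest fold change between groups illustrate these extremes. The Plxnb2 stretch (chr15:89180789-89181038, minus strand) has 4 GC boxes and no such E-box, and the Sema4f stretch (chr6:82939770-82940019, minus strand) has no GC box and 2 E-boxes. Capitals mark these letters or their reverse complement.
Plxnb2: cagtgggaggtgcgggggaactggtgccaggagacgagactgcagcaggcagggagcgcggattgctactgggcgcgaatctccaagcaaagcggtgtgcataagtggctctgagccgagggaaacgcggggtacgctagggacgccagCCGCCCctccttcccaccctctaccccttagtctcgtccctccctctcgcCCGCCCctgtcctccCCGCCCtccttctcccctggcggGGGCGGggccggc
Sema4f: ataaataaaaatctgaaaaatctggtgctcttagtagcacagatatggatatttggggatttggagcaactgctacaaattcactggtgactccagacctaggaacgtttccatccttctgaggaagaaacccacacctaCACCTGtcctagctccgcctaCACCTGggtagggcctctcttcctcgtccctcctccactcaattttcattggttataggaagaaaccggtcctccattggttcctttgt

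The comparison of RvD1 with vehicle asked whether treatment altered these genes in MuSCs. Of the 56 members, 46 had enough counts to be tested. No member had a Benjamini-Hochberg adjusted p under 0.05 (0 of 46) in edgeR's quasi-likelihood test, and the smallest adjusted p among members was 0.971. Over all 14494 genes tested, 0 were called (0.0%). DESeq2 called 0 members as well, with 0.858 as its lowest adjusted p. For limma-voom the lowest was 0.976. It was 0.173 with a surrogate variable removed and a looser count filter (26518 genes, 53 members), again with 0 members called. The 10 members not tested in edgeR are the 3 antisense RNAs and Efna3, Efnb3, Epha5, Epha6, Epha8, Epha10 and Sema4g, none with a mean above 9.83 counts.

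An unadjusted p under 0.05 was found for 2 members, Sema4f and Sema3f, both higher with RvD1. This is 4.35% of the members tested, against 3.47% of all genes in either direction and 1.83% of all genes in that direction, so the share is near the background. A group difference of less than 0.5 on the log2 scale was estimated for 42 of the 46 members. The standard error of these estimates ranged from 0.09 to 0.84 with a median of 0.22.

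Sema4f (ENSMUSG00000000627, chromosome 6, 82911885 to 82939769), a membrane-spanning semaphorin that Schwann cells use in contact with axons, was at 5.52, 4.17 and 3.83 CPM in RvD1 replicates 1 to 3 and 2.79, 1.67 and 2.12 CPM in vehicle replicates 1 to 3. Every RvD1 library was above every vehicle library, also in TPM (2.04 ± 0.345 and 0.947 ± 0.266, SD, n = 3). The log2 fold change was 1.04 with a standard error of 0.29, or 2.06-fold. In edgeR's quasi-likelihood test its p was 0.0058 before and 0.971 after Benjamini-Hochberg adjustment. It rests on a mean of 70.2 counts per library.

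Sema3f (ENSMUSG00000034684, chromosome 9, 107681500 to 107710475), a secreted repellent that acts through Nrp2, was at 5.93, 4.28 and 5.55 CPM with RvD1 and 3.16, 3.45 and 2.55 CPM with vehicle. The groups again did not overlap in CPM or in TPM (4.35 ± 1.57 and 2.06 ± 0.195, SD, n = 3). The log2 fold change was 0.78 with a standard error of 0.24, or 1.72-fold. Its p in edgeR's quasi-likelihood test was 0.0113 before and 0.971 after adjustment. Sema3b, which lies 72.3 kb away with 3 protein-coding genes between, had a log2 fold change of 0.36 with a standard error of 0.21, and its groups overlapped. Differences were small for Nrp2 and for the class A plexins Plxna1 and Plxna3. On the log2 scale they were 0.18, −0.11 and −0.04 (standard errors 0.16, 0.15 and 0.21).

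The groups did not overlap, with RvD1 higher, for 6 members in TMM-scaled CPM (13.0%, against 4.8% of all genes), and with RvD1 lower for 0 members (against 4.83% of all genes). Besides Sema4f and Sema3f, these were Efna2, Sema6b, Plxnb2 and Plxnb1. Efna2 (ENSMUSG00000003070, chromosome 10, 80179482 to 80190010), a lipid-anchored ephrin, was at 5.16, 6.32 and 4.99 CPM with RvD1 and 4.34, 4.83 and 3.48 CPM with vehicle. Its log2 fold change was 0.38, standard error 0.23. Sema6b (ENSMUSG00000001227, chromosome 17, 56123085 to 56140343), a ligand of class A plexins, was at 8.92, 9.56 and 9.49 CPM with RvD1 and 7.93, 8.16 and 6.46 CPM with vehicle. Its log2 fold change was 0.31, standard error 0.17. For Efna2 the gap between the nearest libraries of the groups was narrow, 4.99 against 4.83 CPM.

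Plxnb2 was at 204, 207 and 225 CPM with RvD1 and 199, 198 and 182 CPM with vehicle. Its log2 fold change was 0.14, standard error 0.09. Its TPM ranges overlapped, as given above. None of the 4 genes had an unadjusted p under 0.05 in edgeR. In limma-voom with a surrogate variable removed and a looser count filter, Efna2 (0.035), Plxnb2 (0.0272) and Sema6b (0.0259) did. In that fit 11.2% of all genes had such a p.

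**Figure D3:**
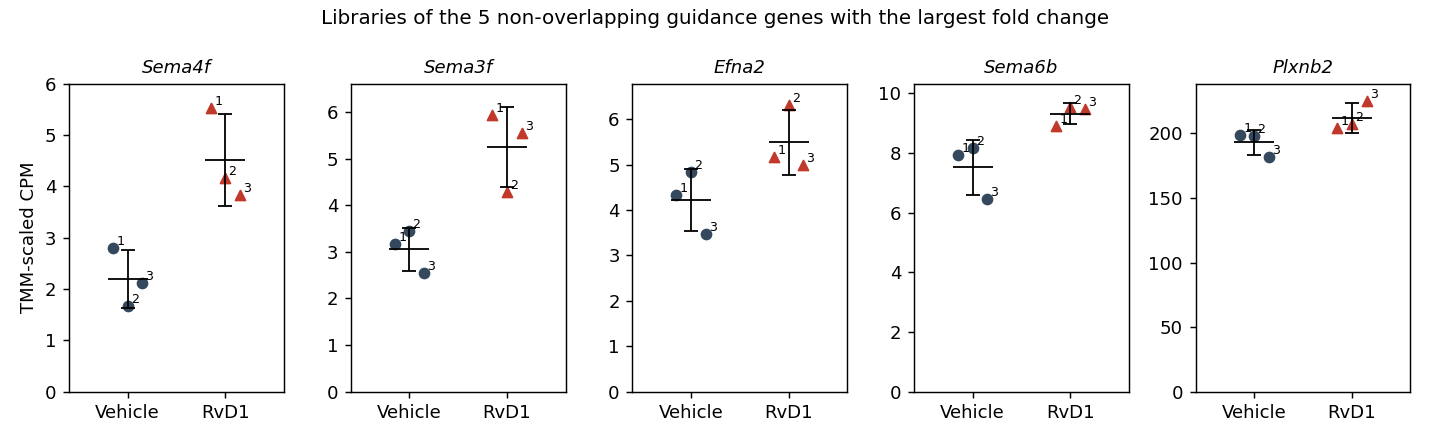
TMM-scaled CPM of each library (numbers are replicate numbers) for the 5 non-overlapping members with the largest fold change, with the mean and SD of each group in black and axes starting at 0. The RvD1 libraries (triangles) lie above the vehicle libraries (circles) in each panel, with mean differences from about 2-fold for Sema4f to a log2 difference of 0.14 for Plxnb2.

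The other abundant members gave log2 fold changes between −0.16 and 0.27. The log2 fold change was 0.08 for Nrp1, −0.11 for Plxna1, 0.10 for Plxnd1, 0.17 for Sema6a and 0.15 for Sema4c, with standard errors of 0.12 to 0.24. For the secreted pair it was −0.03 for Sema3a (standard error 0.09) and −0.04 for Sema3d (standard error 0.23). Ephrins and Eph receptors gave 0.06 for Efnb2, 0.10 for Efnb1, −0.16 for Efna1, −0.10 for Epha2, 0.01 for Ephb4 and 0.27 for Ephb6. For 10 of these 13 genes the sign changed when 1 library was left out. Epha2 and Efna1 kept theirs. Sema4c ranged from 0.00 to 0.38, the highest value being that without RvD1 replicate 1, where its unadjusted p in edgeR was 0.0394. Without both replicate 1 libraries, an alternative chosen after seeing the data, it was 0.52 with an unadjusted p of 0.0068. The adjusted p in these edgeR fits was 0.967 and 0.987.

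As a set, the estimates leaned toward RvD1 without any member being called. The log2 fold change was positive for 36 of the 46 members (78.3%), against 53.5% of all genes tested, and its median was 0.19 against 0.01 for all genes. Members share libraries, so they are no independent observations of treatment. Positive estimates were found for 11 of 11 membrane-spanning semaphorins, 7 of 9 plexins, 4 of 7 secreted semaphorins, 4 of 5 EphB receptors, 3 of 4 A-class ephrins and 2 of 5 EphA receptors. On log2(TPM + 1), the median was 0.18 for the members against 0.08 for all genes. With 1 library left out, the median of the members ranged from 0.13 (without vehicle replicate 2) to 0.23 (without vehicle replicate 1).

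**Figure D4:**
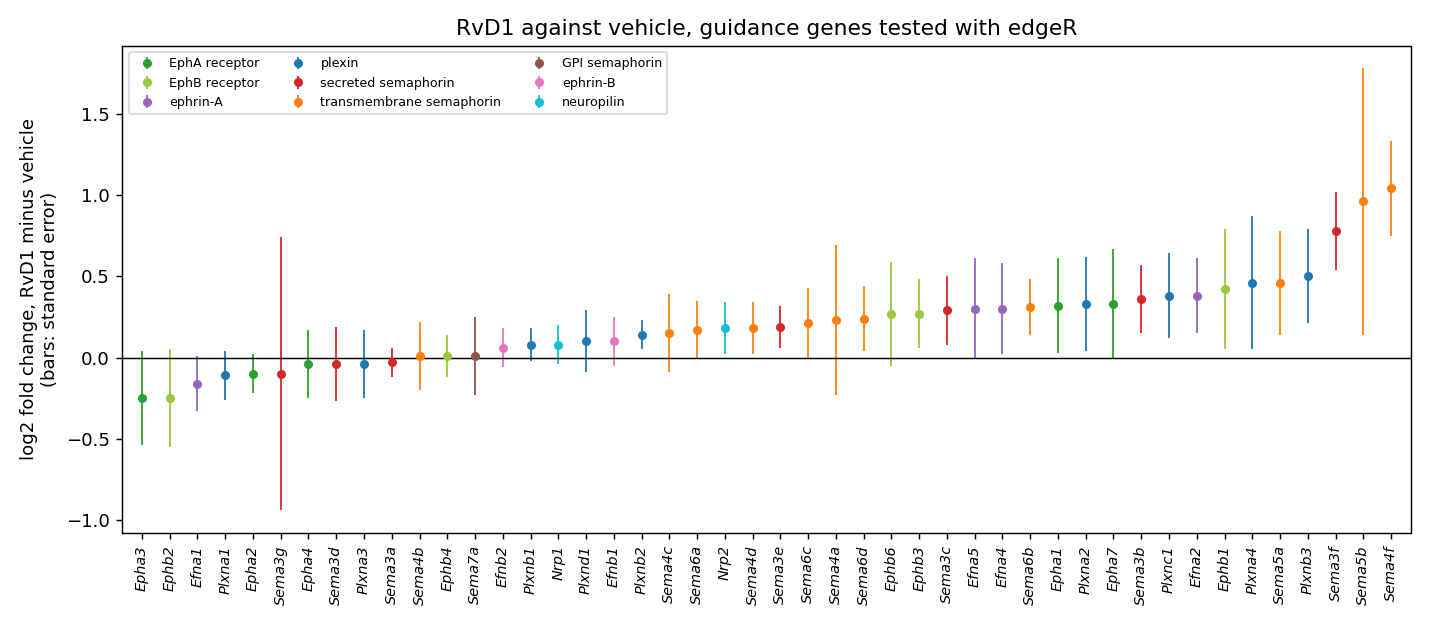
Log2 fold change (RvD1 minus vehicle) of the 46 members tested with edgeR, in ascending order, with standard errors as bars and colors for the families. Most points lie between 0 and 0.5, and the largest values are those of Sema3f, Sema5b and Sema4f, of which Sema5b has a standard error of 0.82.

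Levels summed over a family separated the groups for membrane-spanning semaphorins and B-class ephrins, by narrow gaps. Membrane-spanning semaphorins added up to 110, 99.9 and 99.6 TPM with RvD1 and 98.8, 73.3 and 74.3 TPM with vehicle, with means of 103 ± 6.12 and 82.2 ± 14.4 TPM (SD, n = 3 each). B-class ephrins added up to 43.8, 50.4 and 40.9 TPM with RvD1 and 40.7, 38.2 and 37.9 TPM with vehicle, with means of 45.0 ± 4.85 and 38.9 ± 1.56 TPM (SD, n = 3 each). These sums were not tested. Sums over all members were 600, 555 and 571 TPM with RvD1 and 566, 507 and 489 TPM with vehicle, and these overlapped. Plexins, the largest family, were at 204 ± 18.8 TPM (SD, n = 3) and 197 ± 13.3 TPM (SD, n = 3).

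Libraries with replicate number 1 were the highest for some members, which was noted after the values were seen. In both groups replicate 1 was the highest library for 12 of the 46 members (26.1%), against 20.8% of all genes. The shares are close, so the pattern ran through all genes and was not particular to these members. Its cause was not tested. Among the 12 were the receptors Plxnd1, Plxna2, Plxna3, Plxnc1 and Ephb6 and the semaphorins Sema6a and Sema4f. Plxna2 was at 17.4 TPM in RvD1 replicate 1 and between 6.81 and 10.4 TPM in the other 5 libraries. Its log2 fold change was 0.33 with a standard error of 0.29 and ranged from −0.11 to 0.54 with 1 library left out.

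Markers of other cell types were read in the same libraries. All 10 Schwann cell and nerve glia markers had positive log2 fold changes (median 0.64), against 53.5% of all genes tested. Their summed level was 107 to 207 TPM with RvD1 and 90.4 to 124 TPM with vehicle. An unadjusted p under 0.05 in edgeR was found for 3 of these 10, against 3.47% of all genes tested. The 3 were Ngfr (4.21 ± 0.552 and 2.45 ± 0.444 TPM, SD, n = 3), Cdh19 and Mbp. Sox10, which defines this lineage, was at 2.30 ± 0.613 and 1.38 ± 0.410 TPM, with overlapping groups. All 10 pericyte and smooth muscle markers were also positive (median 0.25, sums of 322 to 659 and 353 to 459 TPM). For both lists the sums of the groups overlapped, and the highest sum was that of RvD1 replicate 1. In that library Pmp22 was at 116.8 TPM and Acta2 at 512.2 TPM, so single genes made up much of the sums. The part of these cell types in the values of Sema4f and Sema3f was not tested.

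Leukocyte markers were negative for 9 of 10 (median −0.49, sums of 37.3 to 60.1 TPM with RvD1 and 52.0 to 94.8 TPM with vehicle) and endothelial markers for 8 of 10 (median −0.97, sums of 11.8 to 19.7 and 8.29 to 24.9 TPM). Fibro-adipogenic markers were positive for 7 of 9 (median 0.16, sums of 486 to 1130 and 544 to 590 TPM). The sum of 1130 TPM was again that of RvD1 replicate 1. No marker of any list was at 0 in every library, and 0 markers had an adjusted p under 0.05 in edgeR's quasi-likelihood test. An unadjusted p under 0.05 was found for 3 leukocyte markers and 1 fibro-adipogenic marker, all lower with RvD1. It was also found for 2 pericyte markers, both higher. Of all genes tested, 3.47% had such a p. Among the guidance genes described above as known from vessels, the log2 fold change was 0.10 for Plxnd1, 0.06 for Efnb2, 0.01 for Ephb4 and −0.10 for Sema3g (standard errors 0.19, 0.12, 0.13 and 0.84). The first 3 turned negative with 1 library left out. The part of endothelial RNA in these values was not tested.

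**Figure D5:**
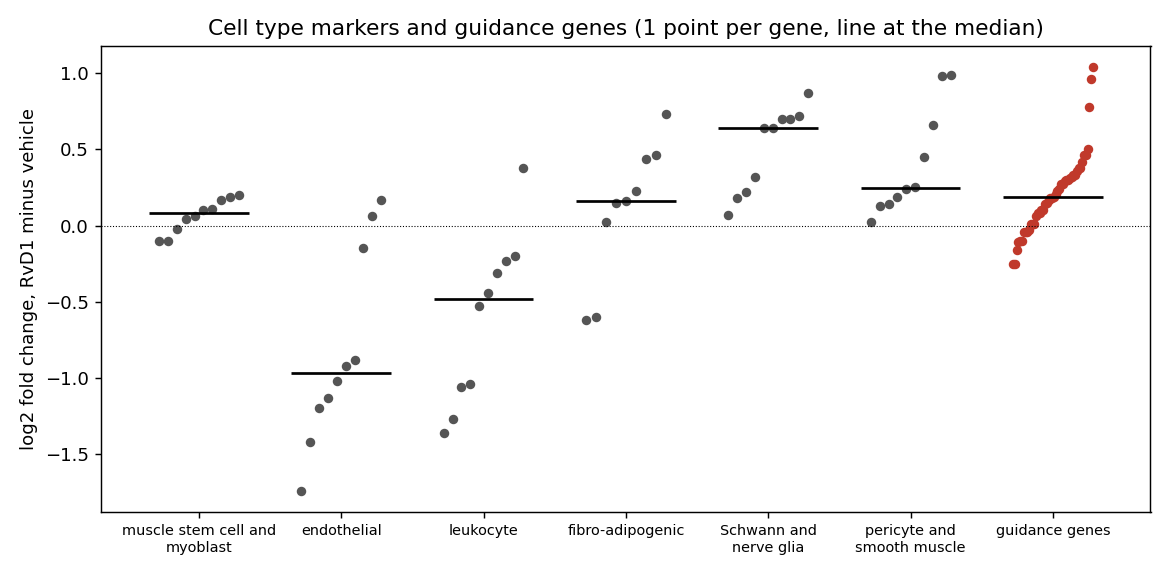
Log2 fold change (RvD1 minus vehicle) of each tested marker, by cell type, and of the 46 guidance genes at the right, with a line at each median. Schwann and pericyte markers lie above 0 and most endothelial and leukocyte markers below it, while muscle stem cell markers lie between −0.10 and 0.20.

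Genes that transmit these signals inside the cell showed no called difference either. Of 46 such genes, 45 were tested, 28 had a positive and 17 a negative log2 fold change (median 0.07), and 0 had an adjusted p under 0.05 in edgeR's quasi-likelihood test. Of the 45 tested, 1 had an unadjusted p under 0.05, against 3.47% of all genes tested. This was L1cam, an adhesion molecule that joins Nrp1 in the Sema3a receptor and is also made by Schwann cells, at 9.89, 4.77 and 5.17 TPM with RvD1 and 4.50, 3.68 and 4.71 TPM with vehicle (log2 fold change 0.74, standard error 0.26). The GTPase Rac1, at 513 TPM on average, had a log2 fold change of −0.04 with a standard error of 0.08.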

How the data were processed

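MuSC libraries (SMART-Seq v4, Nextera XT) were sequenced as 76-bp single-ended reads, which the authors aligned to mm10 with STAR 2.5.0a and quantified with RSEM. The paper gives 10 ng of RNA as input and the labels give 1 ng. Expected counts, as deposited, are unscaled gene-level estimates that divide a read among the genes it matches. TPM, also computed by the authors, corrects for transcript length and depth. FPKM was not used. In each file 1 stray header line was dropped, and 49671 genes remained. Whether counting used strand is not given in the sources used here.

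Expected counts were rounded and tested with edgeR 4.0.16 in R 4.3.3 (TMM, filterByExpr by group, quasi-likelihood test, Benjamini-Hochberg adjustment over all genes tested, threshold 0.05). CPM in the text is TMM scaled. Each library is 1 mouse, with 3 per group. Alternatives were DESeq2 1.42.0, DESeq2 size factors in edgeR, no count filter or a mean of at least 10 counts, limma 3.58.1 with voom without or with removal of 1 surrogate variable (sva 3.50.0), log2(TPM + 1), log2(TPM + 0.1), the replicate number as a block, and each library left out. The fit with the surrogate variable removed also kept genes that the edgeR filter dropped. There the variable was subtracted before the fit, and the model did not account for that step, so its p-values can be too small. The fits were tested on simulated counts.

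Members and gene lists were chosen with earlier results of these data known. Full values are given for the 14 members with the highest mean TPM, members with an unadjusted p under 0.05, and the 5 with the largest fold change among those whose groups do not overlap. Nrp2, Sema3b, Sema5b, Plxna2 and other members given in a clause were named after their values were seen. Positions are from GENCODE M21 on GRCm38, in which all 56 members were found by gene ID, and promoters are from RefSeq on GRCm38.p6. Expected counts were not whole in at least 1 library for 11 members, among them Plxna1, Nrp1, Sema3a and Sema4c, whose values depend on how shared reads were divided.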

Additional observations from a re-analysis of the deposited data

How the results depend on the processing

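The number of guidance genes with an adjusted p under 0.05 was 0 under every alternative run, including each library left out. The number with an unadjusted p under 0.05 was 2 in edgeR. In limma-voom with a surrogate variable removed and a looser count filter it was 8 (15.1% of 53 members, against 11.2% of all genes). Efna2, Efna3, Nrp2, Plxnb2, Sema4d and Sema6b were among these. Without both replicate 1 libraries the number was 4 (8.89% against 4.33%, chosen after seeing the data). With 1 library left out it ranged from 2 to 6, with 4 without RvD1 replicate 1 (8.70% against 4.33%) and 6 without RvD1 replicate 2 (13.0% against 6.83%). Sema4f and Sema3f were past that threshold in each of these fits, with log2 fold changes of 0.87 to 1.25 and 0.67 to 0.91 with 1 library left out. Over all genes, 12 were called without a count filter, and 0 to 1 with 1 library left out, the 1 gene without RvD1 replicate 3. The cause of these shifts was not tested. The median of the members, 0.19, was 0.26 in log2(TPM + 0.1), where the median of all genes was 0.09, and between 0.13 and 0.23 in the other alternatives.

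Of the 18 genes given in full, 8 kept their sign under all alternatives. Sema3a, at −0.03, was at 0.01 with a surrogate variable removed, 0.00 in limma-voom without it, and 0.03 in both TPM fits. Sema3d, at −0.04, was at 0.07 with a surrogate variable removed and 0.12 without both replicate 1 libraries, where Plxna1 was at 0.08. With 1 library left out, log2 fold changes ranged from −0.01 to 0.23 for Efnb1, −0.06 to 0.15 for Efnb2, −0.08 to 0.09 for Ephb4, −0.06 to 0.57 for Ephb6, −0.01 to 0.16 for Nrp1, −0.22 to 0.05 for Plxna1, −0.08 to 0.29 for Plxnd1, −0.09 to 0.01 for Sema3a, −0.24 to 0.20 for Sema3d and −0.02 to 0.34 for Sema6a.

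Replicate numbers recur in both groups, but each library is a separate mouse, so the numbers were not taken as pairs. Deviations of same-numbered libraries from their group means correlated at 0.310, −0.001 and 0.126 for numbers 1 to 3. The value of 0.310 was the highest between any RvD1 and any vehicle library, and its cause was not tested. Not every library correlated best with its own number. With the replicate block, 0 members had an adjusted p under 0.05 (smallest 0.791), and 0 of all genes were called. An unadjusted p under 0.05 was found in that fit for 2 members (4.35%, against 6.18% of all genes). Without the block, 3.47% of all genes had such a p.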

Other observations

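Other guidance families were also present in these MuSCs. Of 22 listed genes of the netrin, Slit, Robo, Unc5 and RGM families, 21 were found in the files, 10 were at 1 TPM or more and 12 could be tested, 9 with a positive and 3 with a negative log2 fold change (median 0.12). None had an adjusted p under 0.05, and none an unadjusted p under 0.05, in edgeR's quasi-likelihood test (0 of 12). Ntn4, a netrin found in basement membranes, averaged 34.1 ± 10.3 TPM in the RvD1 group and 27.3 ± 2.98 TPM in the vehicle group (SD, n = 3 each). Its spread with RvD1 came from replicate 1, at 45.9 TPM.

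Neo1, which encodes neogenin, a receptor for netrins and RGM proteins, was at 30.2, 27.7 and 28.9 TPM with RvD1 and 25.7, 22.9 and 21.7 TPM with vehicle. Every RvD1 library was above every vehicle library, which in CPM held for 4.8% of all genes tested. The log2 fold change was 0.19 with a standard error of 0.09. In edgeR's quasi-likelihood test the p of Neo1 was 0.0674 before and 0.971 after adjustment. Its ligand Rgmb was at 33.9, 32.4 and 27.96 TPM with RvD1 and 27.2, 23.9 and 23.6 TPM with vehicle. On the log2 scale the difference was 0.23 for Rgmb (standard error 0.11) and −0.01 for Rgma. In CPM the groups overlapped for Rgmb. Unc5a was at 10.5 TPM on average, and the netrin receptor Dcc was at or near 0 in every library. These genes were named after their values were seen.

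For 6 of the 46 members tested, the ratio of mean TPM had the opposite sign of the log2 fold change from counts. For Ephb2, the TPM means were 2.03 with RvD1 and 1.63 with vehicle, while the log2 fold change from counts was −0.25 with a standard error of 0.30. The cause was not tested.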
